A study of Danio rerio with 18 samples.

Results

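The comparison here set injured against uninjured zebrafish cells, sorted as retinal ganglion cells, at 12 hours after optic nerve transection (hours post injury, hpi). The sorted libraries also held transcripts of other retinal cell types, given below. Its members were the 3 injured (ONT+) and the 3 control (ONT-) libraries labelled 12 hpi, 6 of the 18 libraries of the series, and every gene with a deposited total count was used. Both groups came from isl2b:GFP transgenic fish aged 3 to 5 months, in which the isl2b promoter drives green fluorescent protein in retinal ganglion cells. The injured cells were sorted from eyes with a transected nerve, and the control cells from the uninjured contralateral eyes, so the controls were not from unoperated animals. GFP-positive cells were sorted and 1000 cells went into each SMART-Seq HT library. The labels do not say whether the replicates were separate fish or pools, so the p-values given here measure the spread between these samples, which may be technical. The remaining 12 libraries, the same groups at 6 and 24 hpi, entered the fit to estimate the spread and served for the comparison between times.

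Retinal ganglion cells are the output neurons of the retina, and their axons form the optic nerve. Zebrafish, unlike mammals, regrow these axons after transection. In injured neurons, stress-activated kinases act on Jun and on Atf3, partners in the AP-1 family of leucine-zipper transcription factors, which are among the earliest genes to be induced. Cytokines of the interleukin-6 family signal through receptors that share the Il6st (gp130) chain, through Jak kinases and through Stat3, and Stat3 induces its own inhibitor Socs3. Regrowth is accompanied by transcription factors such as Klf6 and Sox11 and by growth cone proteins such as Gap43 and the tubulins.

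The 3 injured libraries held 27889895, 24723922 and 19001181 counts assigned to genes, and the 3 control libraries 18513580, 17442365 and 16979745, so the injured libraries were the deeper ones. The pairwise Pearson correlation of log2 CPM, defined next, was 0.914 to 0.933 between the groups (9 pairs), against 0.910 to 0.926 within them (6 pairs). Libraries of the same group were thus no more alike than libraries of different groups. Levels are given as CPM, counts divided by library size after trimmed-mean (TMM) scaling. They are not divided by gene length and are compared only between libraries, not between genes.

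No gene of the 17527 tested differed between injured and control libraries at 12 hpi at an adjusted p under 0.05 (0% called). The test was edgeR's quasi-likelihood test over all 18 libraries, and the smallest adjusted p was 0.718. At an unadjusted p under 0.05 there were 638 genes, 3.64% of those tested, of which 333 were higher and 305 lower in injured cells. In 1473 genes, 8.4% of those tested, the 3 injured and the 3 control values did not overlap, 726 higher (4.14%) and 747 lower (4.26%) in injured cells. The median log2 fold change over all tested genes was 0.0010, and 50.1% were above 0. The median standard error of a gene's log2 fold change was 0.40, with quartiles of 0.23 and 0.93. Other tests made a few calls on the same counts. DESeq2 over 18 libraries called 7 genes (0.0399%). Confined to the 6 libraries of 12 hpi, edgeR's likelihood-ratio test called 17 of 15251 genes (0.111%), DESeq2 called 12 (0.0787%), and 9 were called by both (0.059%). On the same 6 libraries edgeR's quasi-likelihood test called 0 genes, so these calls depended on the test.

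**Figure D1:**
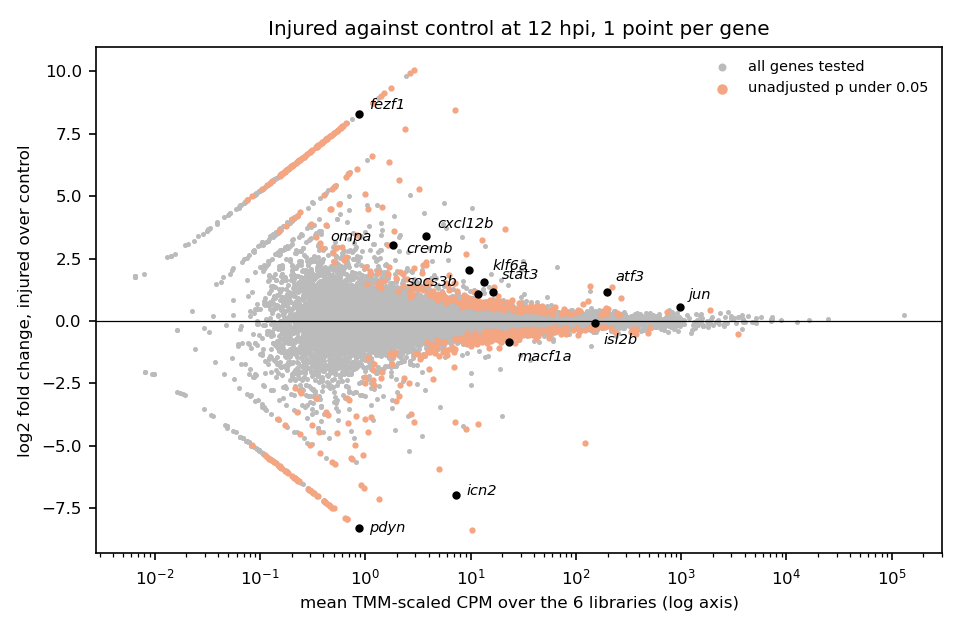
Log2 fold change of injured over control libraries at 12 hpi (y axis) against mean CPM over the 6 libraries (x axis, log scale). There is 1 point per tested gene, with genes at an unadjusted p under 0.05 in orange and named genes in black. The cloud is centred on 0 and widens towards low CPM, and no gene passed edgeR's adjusted p under 0.05. The slanted lines at low CPM are genes with counts in few libraries.

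The sorted libraries were first checked against ganglion cell markers. Transcripts of isl2b (chromosome 7, 29992889 to 29997444, plus strand, GRCz11), the gene whose promoter drives the sorting marker, were at 12.2, 131 and 298 CPM in injured replicates 1, 2 and 3 and at 240.3, 33.5 and 199 CPM in control replicates 1, 2 and 3. Both groups thus held a low library, injured replicate 1 and control replicate 2, and the groups overlapped over their whole range (log2 fold change -0.10, SE 0.87; edgeR adjusted p = 1). The same 2 libraries were lowest for rbpms2b, an RNA-binding protein of ganglion cells, at 53.3, 247 and 412 CPM in injured cells and 321, 89.8 and 322 CPM in control cells. They were also lowest for pou4f2, a transcription factor that specifies ganglion cells, at 22.4, 92.5 and 165 CPM in injured cells and 166, 31.1 and 129 CPM in control cells. Of 28 ganglion markers tested, 13 had a log2 fold change above 0, with a median of -0.02. For 20 of the 28 (71.4%), injured replicate 1 and control replicate 2 were the 2 lowest libraries, beside 10.5% of all tested genes. All markers together made up 0.0988%, 0.258% and 0.396% of counts in injured cells and 0.309%, 0.137% and 0.286% in control cells. In a sorted bulk library, fewer cells of a type and less RNA per cell cannot be told apart.

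Among the ganglion markers, the neurofilament light chain gene neflb had 0, 0.0779 and 0.188 CPM in injured cells, against 0.784, 1.57 and 3.70 CPM in control cells. These low values did not overlap, at a log2 fold change of -4.45 (SE 1.61; edgeR adjusted p = 1). The neurofilament medium chain gene nefma had 2.59, 31.3 and 30.7 CPM in injured cells and 5.88, 3.47 and 15.6 CPM in control cells, which overlapped. The glutamate transporter gene slc17a6a was at 0 in all 6 libraries.

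**Figure D2:**
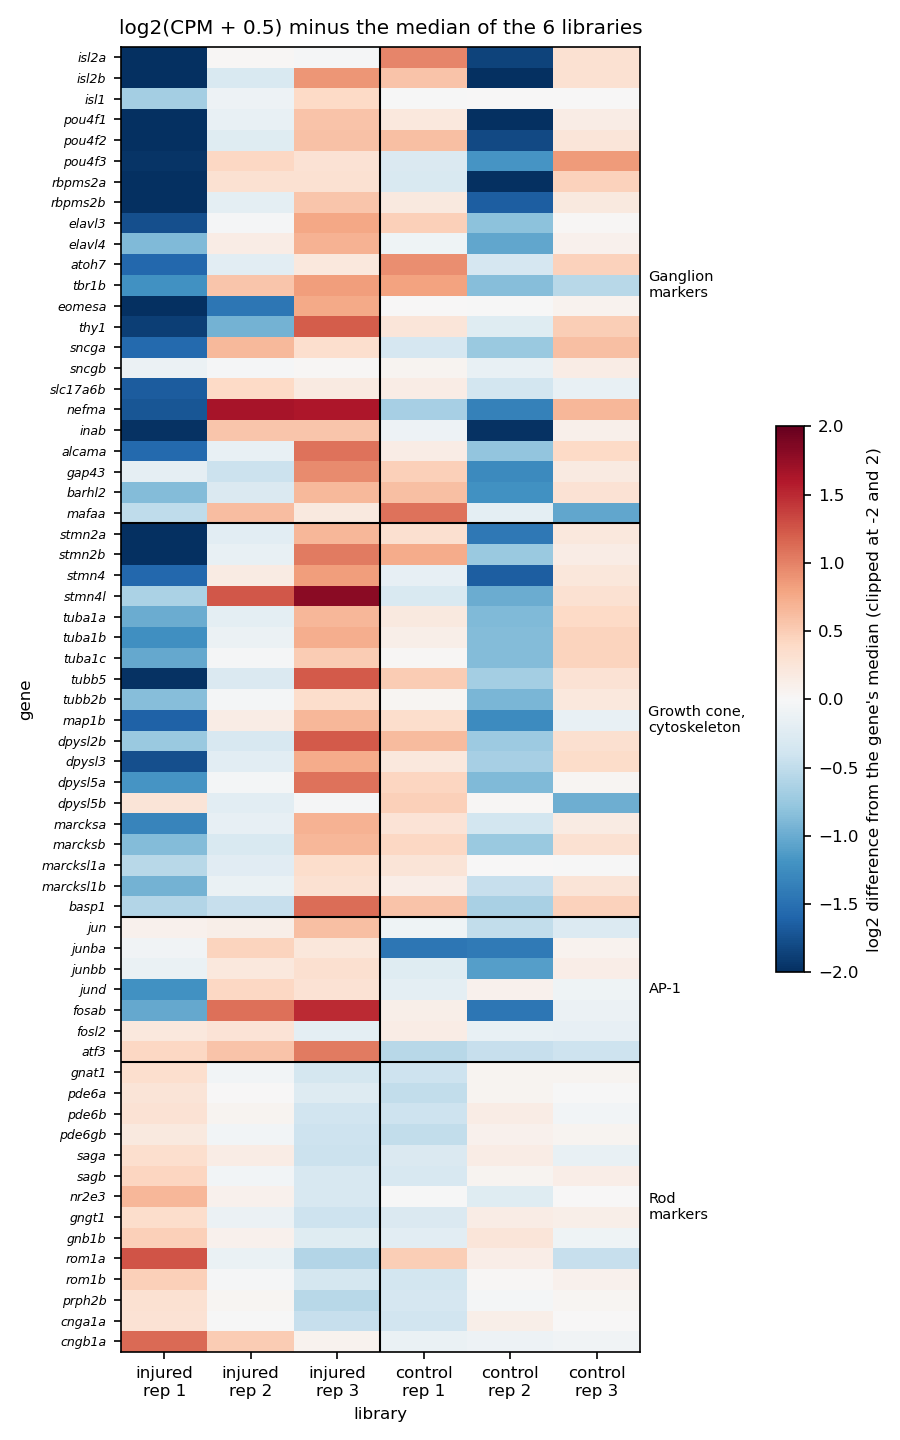
Log2 (CPM + 0.5) of each gene (down the page) in the 3 injured and 3 control libraries of 12 hpi (across), minus the gene's median over the 6 libraries, for ganglion cell markers, growth cone and cytoskeleton genes, AP-1 genes and 14 of the rod markers with a mean of at least 8 CPM, with colours limited to -2 and 2. The rod marker rho was left out of the figure by choice, not by its CPM. Injured replicate 1 and control replicate 2 are blue for most ganglion and growth cone genes, atf3 is red in all 3 injured libraries, and the rod markers are red in injured replicate 1.

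Of 10 AP-1 genes tested, 10 had a log2 fold change above 0 with a median of 0.69, beside 50.1% and 0.0010 over all genes. Without injured replicate 2, 8 of 10 were above 0, with a median of 0.54. In 2 of them, atf3 and jun, every injured library lay above every control library. That is 2 of 10, beside 4.14% of all tested genes that were higher without overlap. The other 8 overlapped between groups, and none of the 10 passed edgeR's adjustment over all genes.

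The gene atf3, which encodes a stress-induced partner of Jun, lies on chromosome 20 at 37794633 to 37800737, plus strand (ENSDARG00000007823). It had 225, 250.3 and 348 CPM in injured cells, against 115, 122 and 127 CPM in control cells. The 3 control values lay close together, and the lowest injured value was well above the highest of them. The group means were 275 ± 65.2 CPM in injured cells and 121 ± 5.89 CPM in control cells (SD, n = 3 each), a log2 fold change of 1.18 (SE 0.37; edgeR adjusted p = 1). Its adjusted p was 0.000817 by edgeR's likelihood-ratio test and 1.51e-05 by DESeq2 when the 12 hpi libraries were tested alone. Over 18 alternative settings the adjusted p ran from 1.51e-05 to 1 and passed in those 2. With any single library left out, the log2 fold change of atf3 stayed between 0.97 and 1.30, and without both libraries low in ganglion markers it was 1.31.

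The gene jun (chromosome 20, 15552657 to 15554606, plus strand, ENSDARG00000043531), the AP-1 core member phosphorylated by Jun kinases, had 1015, 1031 and 1444 CPM in injured cells, against 895, 680.0 and 788 CPM in control cells. The groups did not overlap, and injured replicate 3 was the highest. The log2 fold change was 0.56 (SE 0.22; edgeR adjusted p = 1). In junba, a Jun-related gene, the injured cells had 32.5, 46.9 and 40.0 CPM and the control cells 12.3, 12.6 and 35.9 CPM, so that control replicate 3 lay among the injured values. Its paralog junbb had 186, 235 and 254 CPM in injured cells and 172, 94.8 and 224 CPM in control cells, again with overlap.

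Among the Fos partners, fosab had 51.2, 227 and 296 CPM in injured cells and 114, 38.4 and 97.1 CPM in control cells. Injured replicate 1 was below 2 of the 3 controls, and the log2 fold change was 1.2 (SE 0.65; edgeR adjusted p = 1). For the low-abundance fosl1a the values were 2.55, 12.5 and 6.07 CPM in injured cells and 0.833, 2.24 and 2.76 CPM in control cells. The members jund and fosl2 had log2 fold changes of 0.06 and 0.16. The members fosaa, batf and batf3 had too few counts to be tested. Injured replicate 1 and control replicate 2 were the 2 lowest libraries for 1 of the 10 AP-1 genes, fosab, beside 20 of the 28 ganglion markers.

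**Figure D3:**
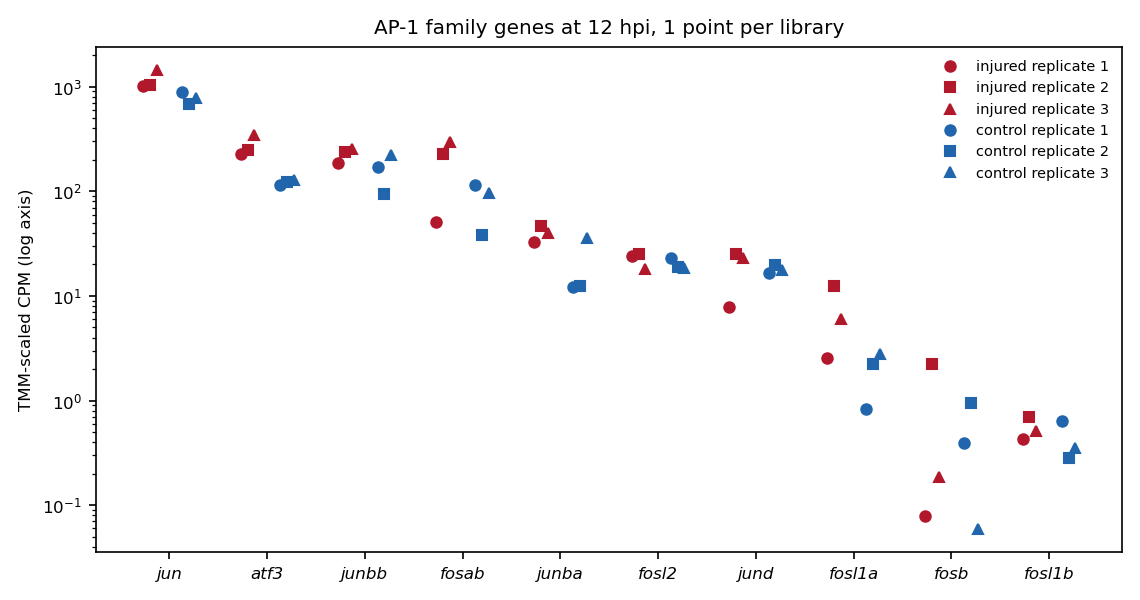
CPM (y axis, log scale) of the 10 tested AP-1 genes (x axis) in the 12 hpi libraries, 1 point per library, with injured libraries in red left of control libraries in blue and the marker shape giving the replicate. For jun and atf3 all injured points lie above all control points, and the other genes overlap.

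Of 18 other immediate-early transcription factors tested, 8 had a log2 fold change above 0, with a median of -0.05. Without overlap between groups, 0 were higher and 1, klf2b, was lower in injured cells, beside 4.14% and 4.26% of all genes. The activity-dependent factor egr1 had 60.0, 86.0 and 56.3 CPM in injured cells and 57.4, 51.7 and 74.5 CPM in control cells, which overlapped. Its relative egr4 had 34.4, 48.7 and 54.1 CPM in injured cells and 102, 53.8 and 70.12 CPM in control cells, also with overlap. Of 12 feedback and effector genes, 9 were above 0 with a median of 0.26. Among them, gadd45ga, a stress-response gene linked to growth arrest, had 38.3, 31.6 and 57.7 CPM in injured cells, against 30.4, 18 and 24.8 CPM in control cells. Its groups did not overlap (log2 fold change 0.80, SE 0.39; edgeR adjusted p = 1).

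The likelihood-ratio test and DESeq2, on the 12 hpi libraries alone, both called 9 genes. Those higher in injured cells were atf3, cremb, cxcl12b, fezf1, cyp27c1 and si:ch73-86n18.1, and those lower were icn2, cenpf and pdyn. The quasi-likelihood test on the same libraries called 0 genes. Apart from atf3, icn2 and pdyn, the 9 genes were singled out after their values were seen. The gene cremb, a zebrafish copy of the cAMP-responsive element modulator CREM, had 14.2, 17.1 and 15.0 CPM in injured cells, against 4.51, 2.97 and 3.76 CPM in control cells. Each group was tight and the gap between them wide, at a log2 fold change of 2.04 (SE 0.78; edgeR adjusted p = 1 over 18 libraries). On the 12 hpi libraries alone its adjusted p was 0.000304 by the likelihood-ratio test and 1.28e-05 by DESeq2. Of 18 alternative settings, cremb passed in these 2 only. The chemokine gene cxcl12b had 6.66, 10.2 and 4.09 CPM in injured cells, against 0.784, 0.897 and 0.294 CPM in control cells, without overlap.

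The zinc-finger factor gene fezf1 had 2.27, 1.99 and 0.941 CPM in injured cells and was at 0 in all 3 control libraries, which makes it at least 32.8-fold higher against a floor of 3 counts over the group. The vitamin A desaturase gene cyp27c1 had 4.58, 0.740 and 1.74 CPM in injured cells and none in control cells, at least 44.0-fold higher by the same floor. The prodynorphin gene pdyn was at 0 in the injured libraries and at 0.588, 1.01 and 3.58 CPM in control cells, at least 39.8-fold lower. The kinetochore gene cenpf was at 0.0392, 0 and 0 CPM in injured cells, against 0.931, 1.74 and 5.34 CPM in control cells. The gene si:ch73-86n18.1 had 0.588, 7.47 and 1.84 CPM in injured cells, against 0.098, 0 and 0 CPM in control cells, with injured replicate 2 far above the other 2. The gene icn2, which encodes an S100-family calcium-binding protein of fish epithelia, had 0.118, 0.156 and 0.0471 CPM in injured cells, against 13.6, 1.51 and 28.3 CPM in control cells. When the libraries of this time were fitted alone, the filter kept genes with enough counts in as many libraries as a group holds. Genes at or near 0 in either group, as in this paragraph, could enter only with counts in every library of the other group. Their lack of overlap was thus partly set by the filter.

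On a list of 12 tested epithelial genes, which includes icn2 and was added after the data were seen, 11 were below 0. The summed level of all 16 matched genes was 13.1, 17.9 and 32.3 CPM in injured cells and 81.6, 19.6 and 297 CPM in control cells. Control replicates 1 and 3 thus stood apart, and control replicate 2 lay within the injured range. The keratin gene krt97 had 0, 0 and 0.188 CPM in injured cells and 9.41, 0.168 and 52.0 CPM in control cells. For krt5 the values were 0.901, 0.973 and 0.565 CPM in injured cells and 7.15, 0.617 and 32.6 CPM in control cells. The part of other cells in the icn2 difference was not tested.

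The 7 genes called by DESeq2 over 18 libraries were sc:d189, vsir, ckma, coro1a and zgc:172122, higher in injured cells, and pdyn and tac3a, lower. Most rested on 1 or 2 libraries. The gene sc:d189 had 0.705, 3.27 and 38.9 CPM in injured cells, against 0.098, 0 and 0 CPM in control cells, without overlap, and edgeR's adjusted p over 18 libraries was 0.718. The leukocyte genes coro1a and vsir were at 9.11 and 5.33 CPM in injured replicate 2 and at 0 in the other 5 libraries. The muscle creatine kinase gene ckma had 9.80, 0.701 and 0 CPM in injured cells and none in control cells. The gene zgc:172122 had 0, 2.53 and 13.4 CPM in injured cells and none in control cells. The tachykinin gene tac3a had a single library above 0, control replicate 1 at 0.490 CPM.

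Of 61 JAK/STAT pathway genes tested, 39 had a log2 fold change above 0 with a median of 0.09, beside 50.1% and 0.0010 over all genes. At an unadjusted p under 0.05, 5 were higher and 2 lower, beside 1.9% and 1.74% of all genes, and none passed adjustment. With 1 library left out, the number higher ran from 1 (without control replicate 1) to 7 (without injured replicate 1 or control replicate 3), and the median from 0.09 to 0.17. Without overlap between groups, 3 were higher and 2 lower, beside 4.14% and 4.26% of all genes. The ligand genes il6, il11a and il11b were at 0 in all 6 libraries, as were il10, epor, csf3r, jak3 and pias4b. Of 5 ligand genes that could be tested, 1 was above 0, with a median of -0.72. Of 15 receptor genes, 9 were above 0, with a median of 0.49.

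The shared cytokine receptor gene il6st had 9.17, 19 and 16.1 CPM in injured cells and 7.45, 10.7 and 11.5 CPM in control cells, with overlap (log2 fold change 0.58, SE 0.40). The leptin receptor gene lepr had 3.29, 8.10 and 11.2 CPM in injured cells and 3.43, 0.392 and 5.87 CPM in control cells, also with overlap. The ciliary neurotrophic factor receptor gene cntfr had 10.4, 20.2 and 32.7 CPM in injured cells and 26.2, 27.8 and 20.9 CPM in control cells, with overlap. Of the 15 receptor genes, 3 did not overlap between groups, 2 higher and 1 lower in injured cells, beside 8.4% of all genes. The interleukin-10 family receptor gene il10rb had 57.8, 52.59 and 44.8 CPM in injured cells, against 31.7, 38.7 and 40.2 CPM in control cells (log2 fold change 0.49, SE 0.17; edgeR adjusted p = 1). The interferon gamma receptor gene ifngr1l had 2.82, 3.46 and 3.29 CPM in injured cells, against 1.62, 2.75 and 0.881 CPM in control cells. The prolactin receptor gene prlra was lower in every injured library, at 83.2, 95.2 and 73.9 CPM in injured cells, against 108, 162 and 106 CPM in control cells (log2 fold change -0.58, SE 0.20; edgeR adjusted p = 1). The ligand gene crlf1a also did not overlap and was lower in injured cells.

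Of the 4 kinase genes, 1 was above 0. The kinase gene jak1 had 52.3, 95 and 85.1 CPM in injured cells and 68.8, 80.6 and 65.6 CPM in control cells, with full overlap (log2 fold change 0.11, SE 0.18). Of 6 Stat genes, 5 were above 0, with a median of 0.24. The gene stat3 (chromosome 3, 17030665 to 17107445, plus strand) had 5.76, 27.8 and 34.2 CPM in injured cells and 9.61, 4.15 and 16.6 CPM in control cells. Injured replicates 2 and 3 were the highest of the 6 libraries, and injured replicate 1 was below 2 controls. The means were 22.6 ± 14.9 CPM in injured cells and 10.1 ± 6.22 CPM in control cells (SD, n = 3 each), a log2 fold change of 1.16 (SE 0.55; edgeR adjusted p = 1). The interferon-responsive stat1a had 91.2, 96.7 and 99.96 CPM in injured cells, against 81.4, 70.8 and 82.3 CPM in control cells. This small difference did not overlap between groups (log2 fold change 0.30, SE 0.12; edgeR adjusted p = 1).

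Of 22 inhibitor genes, 16 were above 0, with a median of 0.16. The Stat3 feedback inhibitor gene socs3b had 8.42, 18.1 and 21.1 CPM in injured cells and 7.15, 4.2 and 11.3 CPM in control cells. Here too injured replicate 1 lay among the controls (log2 fold change 1.07, SE 0.48; edgeR adjusted p = 1). Its paralog socs3a had 3.13, 5.26 and 4.19 CPM in injured cells and 5.24, 1.51 and 4.52 CPM in control cells, with full overlap. Of 9 target genes, 7 were above 0, with a median of 0.07. Among all 61 genes of the pathway, injured replicate 1 and control replicate 2 were the 2 lowest for 6 (9.84%), beside 10.5% of all genes. The gene stat3 was among these, at 5.76 CPM in injured replicate 1 and 4.15 CPM in control replicate 2.

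**Figure D4:**
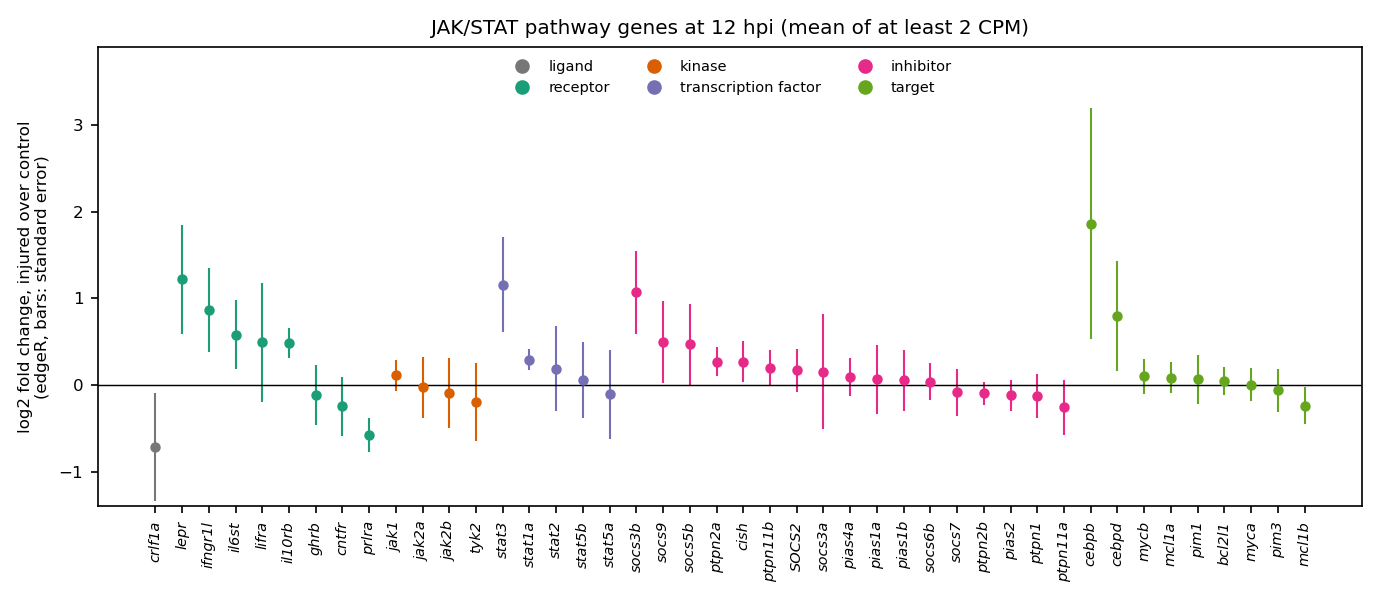
Log2 fold change of injured over control at 12 hpi (y axis) with its standard error for 44 JAK/STAT genes with a mean of at least 2 CPM (x axis), coloured by role. The stat3, socs3b and il10rb points lie above 0 by more than their standard errors and prlra below 0 by more than its standard error, while most bars of the other genes reach or come near 0.

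Of 15 regeneration-associated transcription factors, a list that also holds atf3, jun and stat3, 11 had a log2 fold change above 0 with a median of 0.46, and 5 were higher at an unadjusted p under 0.05, beside 1.9% of all genes. None passed adjustment. The median was 0.14 without injured replicate 2, 0.12 without injured replicate 3 (2 higher at an unadjusted p under 0.05) and 0.23 without control replicate 2 (2 higher). It was 0.65 without injured replicate 1, 0.59 without control replicate 1 and 0.49 without control replicate 3. Of 20 growth cone and cytoskeleton genes, 11 were above 0, with a median of 0.02. The gene klf6a (chromosome 24, 4141484 to 4148915, minus strand), a transcription factor that zebrafish ganglion cells need to regrow axons, had 9.80, 29.9 and 20.7 CPM in injured cells, against 9.02, 3.53 and 8.10 CPM in control cells. Its groups did not overlap, though injured replicate 1 was just above control replicate 1 (log2 fold change 1.55, SE 0.49; edgeR adjusted p = 1). With any single library left out, the log2 fold change of klf6a stayed between 1.15 and 1.88.

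The transcription factor gene sox11a had 223, 239.7 and 303 CPM in injured cells and 214, 297 and 244 CPM in control cells, with full overlap (log2 fold change 0.02). Its paralog sox11b had 78.9, 181 and 232 CPM in injured cells and 91.3, 76.8 and 116 CPM in control cells. Injured replicates 2 and 3 were above all controls and injured replicate 1 was not (log2 fold change 0.79, SE 0.34; edgeR adjusted p = 1). The lowest libraries of sox11b were those low in ganglion markers, control replicate 2 and injured replicate 1. A Myc family gene chosen after its values were seen, mych, had 3.8, 23.8 and 19.1 CPM in injured cells and 3.82, 1.51 and 1.82 CPM in control cells. Here too injured replicates 2 and 3 were above all controls and injured replicate 1 was not.

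Injured replicate 1 and control replicate 2, the libraries low in ganglion markers, were the 2 lowest for 17 of the 20 growth cone genes (85%), beside 10.5% of all genes. The growth cone gene gap43 had 121, 102 and 263 CPM in injured cells and 190.0, 56.4 and 155 CPM in control cells (log2 fold change 0.28, SE 0.52). The beta-tubulin gene tubb5 had 86.4, 279.5 and 806 CPM in injured cells and 485, 214 and 419.9 CPM in control cells. The stathmin-family gene stmn4l, chosen after its values were seen, had 93.8, 344 and 509 CPM in injured cells and 118, 72.6 and 179 CPM in control cells. In each of these genes the groups overlapped, with injured replicate 3 the highest. The group's median depended on single libraries. Without injured replicate 1, 19 of 20 growth cone genes were above 0 (median 0.35), without injured replicate 3, 2 of 20 (median -0.51), and without control replicate 2, 3 of 20 (median -0.25). With the ganglion marker score as covariate, 12 of 20 were above 0 (median 0.03), and without both low libraries 15 of 20 (median 0.06). Both fits were added after seeing the data, and the score itself includes gap43. Beyond these fits, the part of ganglion marker level in these values was not tested.

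Of 15 axon injury kinase genes, 10 were above 0, with a median of 0.17. The gene MAP3K13, which encodes the leucine-zipper kinase LZK upstream of Jun kinase, had 7.13, 8.21 and 4.75 CPM in injured cells, against 4.02, 3.87 and 1.70 CPM in control cells, without overlap (log2 fold change 1.07, SE 0.45; edgeR adjusted p = 1). Of 24 heat shock genes, 17 were above 0, with a median of 0.18. The mitochondrial chaperonin gene hspd1 had 51.8, 40.8 and 43.7 CPM in injured cells, against 34.9, 29.7 and 37.9 CPM in control cells. The co-chaperone gene dnajb1a had 14.6, 18.8 and 17.6 CPM in injured cells, against 11.5, 11 and 13.1 CPM in control cells. Neither overlapped between groups, which makes 2 of the 24 higher without overlap, beside 4.14% of all genes. Of 32 unfolded protein response genes, 22 were above 0 (median 0.19), and of 28 apoptosis genes, 14 (median 0.01). Without overlap between groups, 1 unfolded protein response gene (psat1) was higher in injured cells and 2 (creld2 and ddit4) were lower. In the apoptosis list 1 gene (mdm2) was lower without overlap and 0 were higher, beside 4.26% and 4.14% of all genes. Of 35 circadian clock genes, 13 were above 0 (median -0.05).

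Of 51 innate immune genes tested, 28 were above 0, with a median of 0.16. The median was 0.28 without injured replicate 1, 0.018 without injured replicate 2 and 0.20 without injured replicate 3. It was 0.44 without control replicate 1, 0.28 without control replicate 2 and 0.54 without control replicate 3. The interleukin-1 gene il1b had 0, 32.5 and 0.282 CPM in injured cells and 0.049, 1.18 and 1.29 CPM in control cells. Of 20 macrophage and microglia markers tested, 18 were highest in injured replicate 2. The summed share of counts of all 29 matched markers was 0.0255%, 0.0840% and 0.0373% in injured cells. In control cells it was 0.0291%, 0.0220% and 0.0220%. The macrophage gene mpeg1.1 was at 8.02 CPM in injured replicate 2 and at 0 in the other 5 libraries, and cd74a, of antigen presentation, had 0, 56.0 and 3.53 CPM in injured cells and 0.049, 0 and 2.58 CPM in control cells. The complement gene c1qa was at 0 throughout. Of the 20 tested markers, 18 had a log2 fold change above 0 (median 4.48). Without injured replicate 2, 8 of 20 were above 0 (median 0). Without overlap between groups, 2 were higher and 1, ptprc, was lower in injured cells, beside 4.14% and 4.26% of all genes. The lipid carrier gene apoeb, which glia also express, had 220.2, 551 and 287 CPM in injured cells, against 215, 174 and 166 CPM in control cells, without overlap (log2 fold change 0.93, SE 0.42; edgeR adjusted p = 1). It alone made up most of the summed marker level in every library. That sum was 279, 809 and 334 CPM in injured cells and 264, 215 and 219 CPM in control cells. The genes il1b and cd74a were chosen after their values were seen.

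Transcripts of other retinal cell types were found in every library. The ganglion markers took 0.0988% to 0.396% of counts in injured cells and 0.137% to 0.309% in control cells, far less than the rod markers. Injured cells and control cells in this text thus name the sorted libraries, not pure ganglion cells. Shares of counts do not give shares of cells. Rod markers took 25.5%, 19.6% and 17.0% of counts in injured cells and 16.7%, 19.8% and 20.3% in control cells, and 16 of 16 were highest in injured replicate 1. Cone markers took 1.14% to 2.39% in injured cells and 1.68% to 1.98% in control cells. Bipolar cell markers took 0.630%, 0.520% and 0.698% in injured cells and 0.732%, 0.888% and 0.672% in control cells, and 12 of 14 were highest in control replicate 2. Müller glia markers took 0.345% to 0.368% in injured cells and 0.339% to 0.363% in control cells. Horizontal cell markers were near the detection limit, though ompa had 3.8, 3.54 and 2.45 CPM in injured cells, against 0.049, 0.560 and 0.587 CPM in control cells, without overlap (log2 fold change 3.03, SE 0.90; edgeR adjusted p = 1). The amacrine factor gene tfap2a had 4.98, 8.72 and 8.09 CPM in injured cells, against 28.5, 11.9 and 19.3 CPM in control cells, also without overlap. It was the only 1 of 12 tested amacrine markers without overlap, beside 8.4% of all genes, and 9 of the 12 were below 0 (median -0.54). Amacrine markers together took 0.0115%, 0.0476% and 0.0429% of counts in injured cells. In control cells they took 0.0419%, 0.0147% and 0.0420%, which overlapped. The neutrophil gene npsn was at 1.41, 0.584 and 1.74 CPM in injured cells, against 4.51, 5.16 and 2.70 CPM in control cells. Of 7 oligodendrocyte markers tested, 6 were highest in injured replicate 3. No lymphocyte or erythrocyte marker had enough counts to be tested.

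Over all 17527 tested genes, 4.14% were higher and 4.26% lower in injured cells without overlap between groups. Among the 8980 genes with a mean of at least 8 CPM, 316 were higher and 422 lower without overlap. The 12 with the smallest p in each direction are named here, and all had an edgeR adjusted p of 1. Those higher in injured cells were nploc4, lias, nabp1a, nbn, spryd3, smarcc1a, mef2aa, fsd1, slc27a4, frmd4ba, si:ch211-26b3.4 and klf6a, with log2 fold changes of 0.50 to 1.55. The ubiquitin-chain adaptor gene nploc4 had 30.4, 47.0 and 29.7 CPM in injured cells, against 23.5, 20.4 and 21.8 CPM in control cells (log2 fold change 0.70, SE 0.17). The 6 and 24 hpi libraries had 23.0 to 29.4 CPM of nploc4. Its injured values of 30.4 and 29.7 CPM at 12 hpi lay just above that range, and only 47.0 CPM stood clear of it. The control values of 20.4 and 21.8 CPM at 12 hpi lay below that range, so low controls made up part of the difference. The lipoic acid synthetase gene lias had 27.4, 31.2 and 32.4 CPM in injured cells, against 20.2, 12.9 and 20.03 CPM in control cells (log2 fold change 0.78). Over the 6 and 24 hpi libraries of both groups lias ran from 21.1 to 31.6 CPM, so its 12 hpi controls were the low group. The DNA repair gene nbn had 14.1, 8.84 and 12.1 CPM in injured cells, against 5.54, 6.39 and 4.93 CPM in control cells. The chromatin remodelling subunit gene smarcc1a and the transcription factor gene mef2aa were higher by 0.61 and 0.50 on the log2 scale.

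Those lower in injured cells were macf1a, hebp2, gng2, tnrc6a, CABZ01064859.2, maf1, ip6k1, rnd2, dtd2, snap91, si:dkeyp-110g5.4 and sphk2, with log2 fold changes of -1.09 to -0.42. The gene macf1a, whose product links microtubules to actin, had 17.2, 17.3 and 14.9 CPM in injured cells, against 24.6, 29.5 and 35.3 CPM in control cells (log2 fold change -0.85, SE 0.20). Over the 6 and 24 hpi libraries of both groups macf1a ran from 13.3 to 26.1 CPM. All its injured values at 12 hpi lay within that range, and control replicates 2 and 3 lay above it. The G protein subunit gene gng2 had 61.8, 57.6 and 79.3 CPM in injured cells, against 98.0, 94.2 and 91.6 CPM in control cells. The clathrin adaptor gene snap91, of synaptic vesicle recycling, had 16.5, 23.4 and 26.1 CPM in injured cells, against 26.9, 34.0 and 41.5 CPM in control cells. The RNA polymerase III repressor gene maf1 and the sphingosine kinase gene sphk2 were lower by 0.70 and 1.09 on the log2 scale (-0.70 and -1.09).

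The 12 hpi effect was then set against the 6 and 24 hpi effects, each against its own contralateral controls. At 6 hpi, injury was partly confounded with the column-name sets described under data processing. No gene's injury effect at 12 hpi differed from that at 6 hpi by edgeR's adjusted p (0% called of 17527; smallest adjusted p 0.988), with 843 at an unadjusted p under 0.05 (4.81%) and 15 called by DESeq2 (0.0856%). None differed from that at 24 hpi either (0% called; smallest adjusted p 0.443), with 958 at an unadjusted p under 0.05 (5.47%) and 18 called by DESeq2 (0.103%).

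The atf3 effect was above 0 at all 3 times. Its log2 fold change was 1.24 (SE 0.37) at 6 hpi, 1.18 (SE 0.37) at 12 hpi and 1.75 (SE 0.38) at 24 hpi. The difference of the 12 hpi effect was -0.07 (SE 0.52) from 6 hpi and -0.58 (SE 0.52) from 24 hpi, both smaller than or near their standard errors. The AP-1 list had medians of 0.33, 0.69 and 0.73 at 6, 12 and 24 hpi. The gene cremb had log2 fold changes of -1.46, 2.04 and 3.42 at 6, 12 and 24 hpi, and at 24 hpi its levels were 56.5, 26.5 and 183 CPM in injured cells, against 2.47, 14.0 and 8.28 CPM in control cells. The difference of the cremb effect at 12 hpi from that at 6 hpi was 3.50 (SE 1.2; edgeR adjusted p = 0.988).

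The jak1 effect was -0.22, 0.11 and 0.98 at 6, 12 and 24 hpi, and the 12 hpi effect was below that at 24 hpi by -0.87 (SE 0.26; edgeR adjusted p = 0.913). The sox11a effect was -0.05, 0.02 and 0.94, a difference of -0.92 (SE 0.32; edgeR adjusted p = 0.913). At 24 hpi sox11a had 213, 195 and 380 CPM in injured cells, against 106, 155 and 149 CPM in control cells. Its 12 hpi controls, at 214, 297 and 244 CPM, were again higher than those at 24 hpi. The stat3 effect was 0.46, 1.16 and 1.23, and the socs3b effect was -0.18, 1.07 and 1.52. The klf6a effect was -0.13, 1.55 and 0.92, and stat1a had -0.10, 0.30 and -0.06. The ganglion marker list had medians of -0.76, -0.02 and -1.01 at 6, 12 and 24 hpi. At 12 hpi that median was 0.45 without injured replicate 1 and -0.37 without injured replicate 3.

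The smallest p-values of the comparison between times belonged to other genes. Against 6 hpi they were icn2, cep78 and the cone phosphodiesterase gene pde6ha, which had 3183, 3305 and 2006 CPM in injured cells, against 3761, 3823 and 4603 CPM in control cells at 12 hpi. Its effect was -0.52 at 12 hpi and 0.63 at 6 hpi (difference -1.15, SE 0.25; edgeR adjusted p = 0.988). Against 24 hpi they were sc:d189, si:ch211-26b3.4 and the receptor gene gpr78a. The gene si:ch211-26b3.4 was 0.76 higher at 12 hpi and -0.91 at 24 hpi (difference 1.67, SE 0.33; edgeR adjusted p = 0.789).

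**Figure D5:**
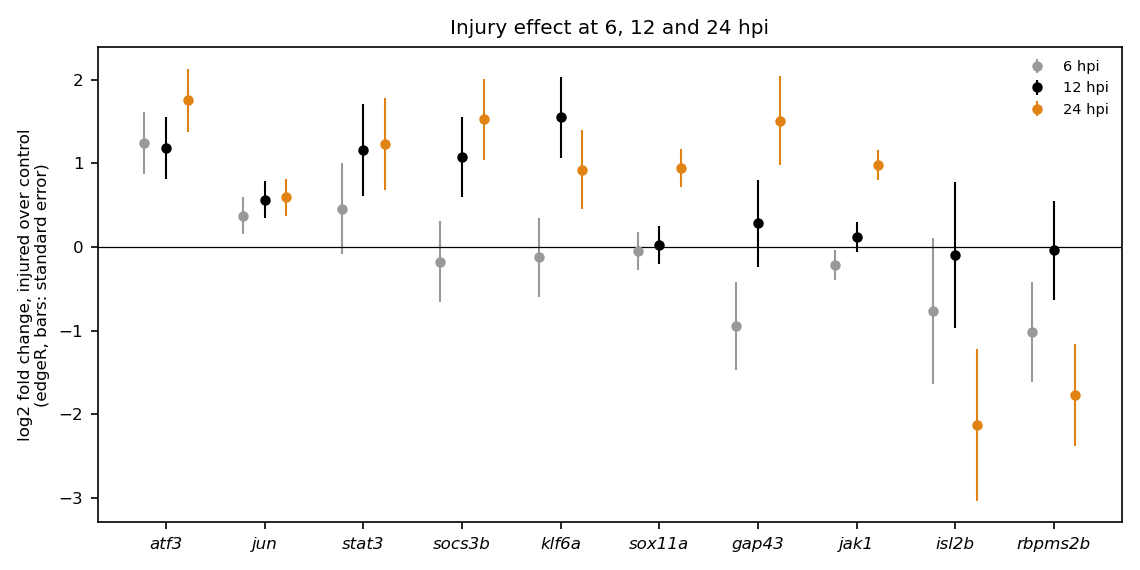
Log2 fold change of injured over control (y axis) with its standard error for 10 genes (x axis) at 6, 12 and 24 hpi (grey, black and orange). The atf3 effect is 1.24, 1.18 and 1.75 at 6, 12 and 24 hpi, jak1 and sox11a lie near 0 at 12 hpi and near 1 at 24 hpi, and isl2b and rbpms2b lie closest to 0 at 12 hpi. Control levels of jak1 and sox11a were lower at 24 hpi than at 12 hpi.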

How the data were processed

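RNA-seq total counts per gene, as deposited by the authors, were used unchanged for 25281 genes (23499 with a symbol). Every count column could be tied to a sample (0 could not). Per the labels' protocols, libraries came from 1000 sorted cells by SMART-Seq HT and Nextera XT. The submitters' processing notes name GRCz11. The counting tool, the annotation release and the use of strand are not given in the sources used here, so paralogs and antisense partners may share reads. The authors' CPM, TPM, RPKM and fold change columns were not used.

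Counts were fitted with edgeR 4.0.16 (limma 3.58.1, R 4.3.3): filterByExpr with a minimum count of 10, TMM scaling, 1 mean per group over 18 libraries, the quasi-likelihood test and Benjamini-Hochberg adjustment at 0.05. The 12 hpi effect was also compared with the other times by interaction contrasts. DESeq2 1.42.0, other scalings, no filter, the 12 hpi libraries alone, a replicate block and leaving out each library were alternatives. A ganglion marker score as covariate and leaving out the 2 libraries low in ganglion markers, and an epithelial gene list, were added after seeing the data. The fits were tested on simulated data. The S numbers in the column names follow plate position in more than 1 order, from which libraries were grouped by hand into sets. What these sets stand for is not given in the sources used here. All 12 hpi columns fell into the same set, so no split by set was possible within them. At 6 hpi some control columns but no injured column fell into the other set, so set and injury are partly confounded there. With the set as covariate, the difference between 12 and 6 hpi still gave 0 calls. Only the column of injured replicate 1 at 6 hpi is marked as trimmed. The precision at this depth is given by the standard errors. Each was obtained as the absolute log2 fold change divided by the square root of the quasi-likelihood F statistic. These values are rough for genes with counts in few libraries.

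The gene lists and the genes described were chosen with earlier results of these data known. Named genes were 12 of interest, the 12 smallest p in each direction among genes with a mean of at least 8 CPM and no overlap between groups, calls of edgeR or DESeq2, at most 4 non-overlapping members per list, and the 3 smallest p of each interaction. Other list members given with values were chosen after those were seen. Of 655 list names, 637 matched a gene. Some results are not reported here.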

Additional observations from a re-analysis of the deposited data

How the results depend on the processing

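Of 17527 genes, 0 were called at 12 hpi and 638 had an unadjusted p under 0.05. The calls were 0 as well with RLE or upper-quartile scaling, with no filter, or with the column-name set as covariate. They were also 0 with the ganglion score as covariate (729 unadjusted) or without both libraries low in ganglion markers (591). With 1 library left out, 0 were called and 523 to 847 had an unadjusted p under 0.05. DESeq2 called 7. On the 12 hpi libraries alone, quasi-likelihood called 0 (378 unadjusted), the likelihood-ratio test 17 (360) and DESeq2 12 (390). Deviations of same-numbered injured and control libraries correlated at -0.07, 0.0014 and 0.10, and those of other-numbered ones at -0.17 to 0.16. These ranges overlap, so whether replicate numbers pair the samples cannot be decided from them. With the replicate number as a block, 1 gene (krt97) was called over 18 libraries and 0 over the 12 hpi libraries (336 unadjusted). The difference from 6 hpi gave 0 calls (843 unadjusted), 15 by DESeq2 and 1 (krt97) with the block. The difference from 24 hpi gave 0 calls (958 unadjusted), 18 by DESeq2, and 0 to 2 with 1 library left out, where sc:d189 and si:dkey-85n7.6 were called without injured replicate 1. Without both low libraries the log2 fold change was -0.048 for socs3a and 0.035 for rbpms2b, the opposite signs. With 1 library left out, signs turned for socs3a (-0.22 to 0.48), jak1 (-0.060 to 0.33), sox11a (-0.12 to 0.16), gap43 (-0.26 to 0.62), isl2b (-1.14 to 0.45) and rbpms2b (-0.70 to 0.43), and the fitted value was 0 where the only library with counts was left out, for mpeg1.1 (0 to 9.51), vsir (0 to 8.92), coro1a (0 to 9.69) and tac3a (-5.59 to 0). The cause of these changes was not tested. The AP-1 genes were above 0 in 8 to 10 of 10 with 1 library left out, with medians of 0.54 to 0.88. At this depth and with 3 libraries a group, a difference of the size of the median standard error was not detectable. Differences of several standard errors also went uncalled in the main fit, such as nploc4 (log2 fold change 0.70, SE 0.17) and atf3 (1.18, SE 0.37).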

Other observations

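Injured replicate 1 had 108 of 8980 genes more than 2-fold below all other libraries of 12 hpi, against 9 to 53 genes in each of the other 5, and isl2b, isl2a, atoh7, thy1 and slc17a6b were among them. The neuropeptide gene adcyap1b (PACAP) had 11.8, 102 and 94.8 CPM in injured cells and 36.2, 10.1 and 62.4 CPM in control cells. The transcription factor gene etv1 was at 0.392, 0 and 0.612 CPM in injured cells, against 10.1, 4.2 and 2.11 CPM in control cells. The circadian gene ciarta had 179, 179 and 184 CPM in injured cells and 179, 176 and 179 CPM in control cells, and nfil3-6 had 414, 333 and 416 CPM in injured cells, against 448, 474 and 499 CPM in control cells. The genes ciarta and nfil3-6 were named as clock list members whose groups did not overlap. Of 35 clock genes, 2 were higher and 1 lower without overlap, beside 4.14% and 4.26% of all genes. The genes adcyap1b and etv1 were chosen after their values were seen.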
